A study of Mus musculus with 3 samples.

Results

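The genes examined here encode the ID proteins Id1, Id2 and Id3 and 7 components of bone morphogenetic protein (BMP) signalling, the receptors Bmpr1a and Bmpr2, the receptor-activated SMADs Smad1 and Smad5, and the feedback inhibitors Smad6, Smad7 and Bambi. They were picked by gene symbol from their known function, and all 10 were found among the 22068 genes listed for each library. Of the 10, 9 had a mean of at least 1 RPKM (reads per kilobase of gene, scaled to the size of the library) over the 3 libraries, the level at which a gene is called measured here. Bambi, at 0.155 RPKM or less, was not measured by that standard. Across the series 10172 genes were.

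BMP ligands bind a complex of type I receptors (such as Bmpr1a) and type II receptors (such as Bmpr2), which phosphorylates Smad1 and Smad5 so that they enter the nucleus with Smad4. The Id genes are direct targets of these SMADs. ID proteins have a helix-loop-helix but no DNA-binding region, so they hold E proteins (Tcf3, Tcf4 and Tcf12) in dimers that cannot bind DNA, and E proteins are the partners that MyoD needs. Smad6, Smad7 and Bambi are also induced by the pathway and dampen it. In C2C12 cells, added BMP is known to block the formation of myotubes and to turn the cells towards the osteoblast lineage.

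C2C12 is a mouse myoblast line that forms myotubes when serum is withdrawn. Lentivirus carried Linc-RAM, a short hairpin RNA against it (sh-Linc-RAM) or no insert (empty vector), and infected cells were selected with blasticidin as stable lines. According to the study's methods a CMV promoter drove Linc-RAM and an EGFP sequence came with that vector, whereas the hairpin was expressed from a U6 promoter, and which of the hairpins described there gave this line is not given in the sources used here. Cells of every line grew in 10% fetal bovine serum, and RNA was taken 12 h after the change to differentiation medium with 2% horse serum. Polyadenylated RNA of each line gave 1 library, so a condition cannot be told apart from a single line, and no replicates stand behind any difference. Fewer cells of a type and less RNA per cell cannot be told apart in such samples either. Linc-RAM itself, listed as 2310015B20Rik, was listed at 0 with the empty vector or the hairpin and at 1.07 RPKM in the line overexpressing it, where 1 read on 443 nt would give that value, so it does not check the labels.

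The RPKM steps put the size of the control library at 5.13 M reads, that of the overexpression library at 2.11 M and that of the knockdown library at 1.88 M. Beside each ratio of 2 libraries stands an exact (Clopper-Pearson) 95% interval from recovered whole reads. These intervals cover counting error only and compare libraries, not conditions, so no p-value is given. Where 3 levels or read numbers follow one another, they stand in the order control, overexpression, knockdown. The myoblast markers Des, Cdh15, Myod1, Myf5 and Chrna1 were all measured, and their summed levels were 371, 533 and 209 RPKM. Des, the most abundant, was at 291, 386 and 145 RPKM, with ratios to the control of 1.33 (1.25 to 1.41) and 0.499 (0.456 to 0.545). With knockdown Cdh15 had a ratio of 0.480 (0.357 to 0.636), while Myf5 at 0.896 (0.614 to 1.28) and Chrna1 at 1.145 (0.989 to 1.32) had intervals that included 1. Of 8 osteoblast markers only Runx2 was measured, Alpl and Ibsp were listed at 0 in all 3 libraries, and the summed level ran from 5.41 to 12.8 RPKM. Of 5 fibroblast markers 2 were measured (sums of 4.93 to 7.98 RPKM, Lum at 0), and these ran in opposite directions. Dcn had ratios of 3.86 with overexpression (1.78 to 8.71) and 0.683 with knockdown (0.124 to 2.53), from 12, 19 and 3 reads. Pdgfra, the most abundant, had ratios of 0.791 with overexpression (0.534 to 1.15) and 1.94 with knockdown (1.45 to 2.59). Among 5 endothelial markers none was measured (sums of at most 0.248 RPKM, Kdr and Emcn at 0).

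Promoter sequence was at hand for 7 of the 10 genes. The sequences of Id2, Id3 and Smad6 are shown because they belong to the ID family or, for Smad6, to the gene with the lowest ratio to the control. Each is the 250 bases before the transcription start in RefSeq on GRCm38.p6, read 5′ to 3′ on the gene's strand. Capitals mark GGCGCC, a GC-rich SMAD element, GTCT or its reverse complement AGAC, the short SMAD binding element, and CANNTG, the E-box bound by MyoD with an E protein. The Id2 window lies at chr12:25096093-25096342 on the reverse strand, that of Id3 at chr4:136143572-136143821 on the forward strand and that of Smad6 at chr9:64022060-64022309 on the reverse strand.
Id2: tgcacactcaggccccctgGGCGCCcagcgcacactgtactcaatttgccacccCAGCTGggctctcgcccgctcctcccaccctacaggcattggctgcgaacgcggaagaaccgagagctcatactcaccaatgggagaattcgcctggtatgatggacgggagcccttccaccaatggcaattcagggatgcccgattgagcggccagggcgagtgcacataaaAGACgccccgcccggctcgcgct
Id3: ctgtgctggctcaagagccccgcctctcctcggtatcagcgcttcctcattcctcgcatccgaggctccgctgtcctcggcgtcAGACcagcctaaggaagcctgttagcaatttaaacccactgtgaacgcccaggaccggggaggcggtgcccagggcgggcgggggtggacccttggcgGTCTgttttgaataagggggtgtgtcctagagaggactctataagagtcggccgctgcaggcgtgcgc
Smad6: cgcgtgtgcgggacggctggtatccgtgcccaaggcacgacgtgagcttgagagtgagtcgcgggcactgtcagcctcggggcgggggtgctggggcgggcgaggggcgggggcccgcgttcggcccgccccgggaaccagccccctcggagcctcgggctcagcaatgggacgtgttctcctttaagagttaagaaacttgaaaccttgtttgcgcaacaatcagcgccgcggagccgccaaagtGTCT

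The Id2 window held GGCGCC 231 bases before the start, CAGCTG, an E-box, at 196 bases and AGAC at 23 bases. In the Id3 window AGAC stood 166 bases and GTCT 68 bases before the start, and the Smad6 window had GTCT at 4 bases. GGCGCC was not particular to the target genes, as Bmpr1a, Bmpr2 and 1 of 3 Smad5 starts also held it, while the Smad1 window held none of the motifs. Searched on both strands, the same length of promoter held GGCGCC in 9.54% of 27025 promoters, GTCT in 83.0% and CANNTG in 66.0%, so the short motif and the E-box are common in any promoter. A match of letters is no measure of binding.

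The 10 genes spanned a wide range of levels in the control library. Id3 was the highest at 24.5 RPKM, followed by Id1 at 18.4, Smad5 at 15.1, Bmpr1a at 12.02, Bmpr2 at 7.89, Smad1 at 6.79, Id2 at 2.91, Smad6 at 2.76, Smad7 at 2.24 and Bambi at 0.155. Id3 thus lay above 94.8% of all listed genes and Id1 above 92.4%. Between neighbours in that order, the counting interval of the ratio included 1 for Id1 over Smad5 (1.22, 0.961 to 1.53), Bmpr2 over Smad1 (1.16, 0.898 to 1.51), Id2 over Smad6 (1.06, 0.580 to 1.86) and Smad6 over Smad7 (1.23, 0.798 to 1.89), so these pairs could not be ordered at this depth. Id3 over Id1 was at the edge (1.33, 1.003 to 1.78). With overexpression Id1, Id3 and Smad5 could not be ordered (1.05, 0.636 to 1.72, for Id1 over Id3), and with knockdown Id3 stood alone at the top, 1.81 times Smad5 (1.34 to 2.40). Bambi had 4 reads in the control and 1 in each of the other libraries.

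**Figure D1:**
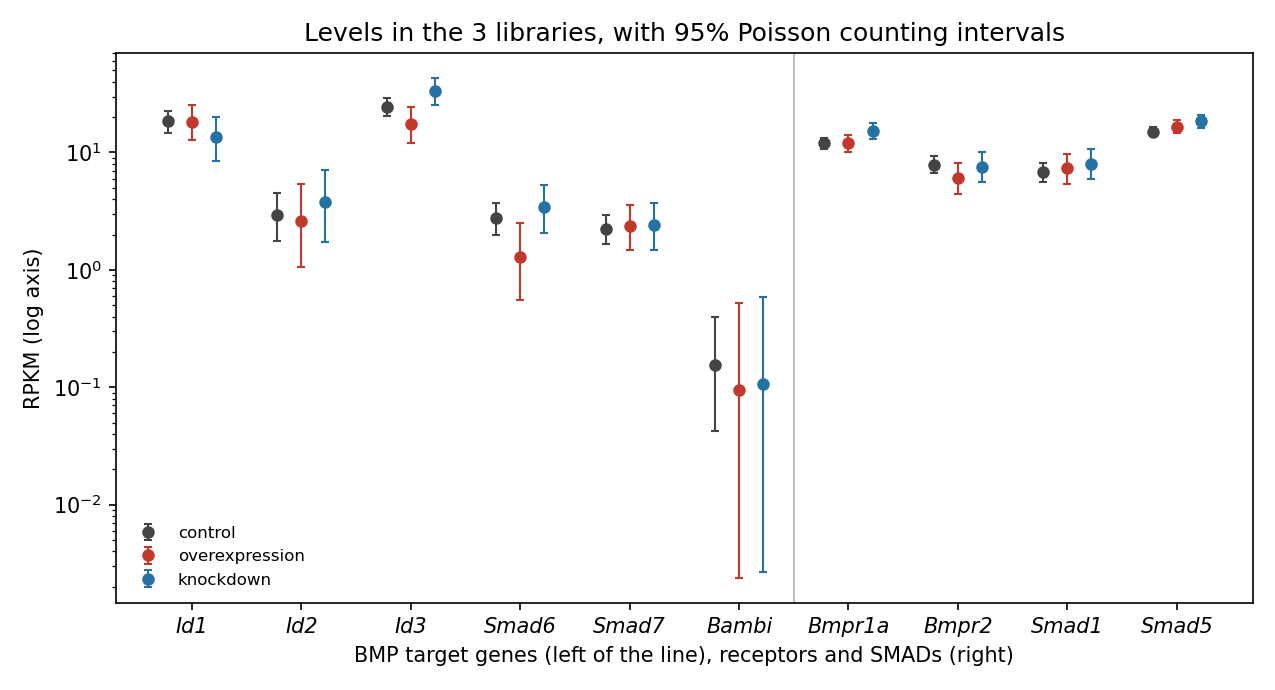
RPKM (log axis) of the 10 genes in the control, overexpression and knockdown libraries (1 point per library), with exact 95% Poisson intervals for counting error. BMP target genes stand left of the line and receptors and SMADs right of it, and the points of a gene lie close together beside the spread between genes, with Id3 at its own highest in the knockdown library at 33.5 RPKM and Smad6 at its own lowest with overexpression at 1.28 RPKM.

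Id3, the most abundant of the ID genes (chromosome 4 of mm9, 135699412 to 135701670), was lowest with Linc-RAM overexpression and highest with knockdown. Its levels were 24.5, 17.4 and 33.5 RPKM, from 120, 35 and 60 reads. The ratio to the control was 0.711 with overexpression (95% interval 0.473 to 1.04) and 1.37 with knockdown (0.985 to 1.88), and both intervals included 1. Set directly against each other, the overexpression library had 0.520 of the Id3 level of the knockdown library (0.333 to 0.802), a ratio of 0.492 after scaling to equal sums. Both ratios to the control were near the edge of counting error, as scaling to the median ratio moved the knockdown interval to 1.01 to 1.92 and scaling to equal sums moved the overexpression interval to 0.448 to 0.987.

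Id1 (chromosome 2, 152561987 to 152563146) did not run in parallel. It stood at 18.4, 18.2 and 13.4 RPKM, from 86, 35 and 23 reads, so here the knockdown library was the lowest. The ratios were 0.992 with overexpression (0.649 to 1.48), 0.731 with knockdown (0.440 to 1.17) and 1.36 between overexpression and knockdown (0.780 to 2.41), each within counting error of 1. Id2 (chromosome 12, 25778666 to 25780957) was at 2.91, 2.61 and 3.77 RPKM from 19, 7 and 9 reads. Its ratio of 0.898 with overexpression (0.319 to 2.23) leaves room for a 2-fold difference in either direction, and that of 1.29 with knockdown (0.516 to 3.001) for one upwards.

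The ID genes were also compared with one another within each library, which needs no scaling between libraries. Id3 was 1.33 times the Id1 level in the control, 0.956 times with overexpression and 2.49 times with knockdown. The Id3 to Id1 proportion was thus 1.87-fold higher with knockdown than in the control (exact conditional 95% interval 1.04 to 3.42) and, with overexpression, 0.383 of that with knockdown (0.185 to 0.790). Between overexpression and control it was 0.717 (0.401 to 1.28). In all, 18 such proportions were computed, 6 pairs of related genes in 3 comparisons, and the interval excluded 1 for these 2 alone. Both use the same Id3 and Id1 reads of the knockdown library, 60 and 23, so they are not separate results. No share over other pairs of genes was computed. For single genes, 17.8% to 19.4% had an interval that excluded 1 in a comparison. For Smad5 relative to Smad1, the largest departure was 1.04 (0.703 to 1.55), and for Bmpr1a relative to Bmpr2 it was 1.33 (0.902 to 1.97).

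Smad6, an inhibitory SMAD that binds activated type I receptors and competes with Smad4 for Smad1 (chromosome 9 of mm9, 63800953 to 63869866), had levels of 2.76, 1.28 and 3.41 RPKM, from 42, 8 and 19 reads. The overexpression library was the low one. Smad6 was the only measured gene of the set that met the criterion of 2-fold in the study's methods. In the overexpression library it had 0.464 of the control level (0.188 to 1.001) and 0.376 of the knockdown level (0.142 to 0.898). The first interval just reached 1 and ended at 0.980 after scaling to the upper quartile and at 0.947 after scaling to equal sums. With 1 RPKM added to every value, neither Smad6 difference reached 2-fold. Smad7, the inhibitory SMAD shared with the TGF-β pathway, varied little beside it, at 2.24, 2.35 and 2.398 RPKM, with ratios of 1.05 (0.607 to 1.77) and 1.07 (0.605 to 1.83) from 51, 22 and 20 reads. The Smad6 to Smad7 proportion with overexpression was 0.442 of that in the control, an interval of 0.155 to 1.17 that included 1. Bambi, a pseudoreceptor without a kinase, had too few reads for any comparison (0.609, 0.0124 to 6.16, with overexpression).

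Among the receptors, Bmpr1a (chromosome 14, 35223920 to 35316527) was at 12.02, 12.04 and 15.3 RPKM, from 338, 139 and 158 reads, and so was highest with knockdown. The ratio was 1.002 with overexpression (0.816 to 1.22) and 1.28 with knockdown (1.05 to 1.55), and overexpression was at 0.785 of knockdown (0.620 to 0.992). Some exon bases of Bmpr1a are shared with Gm17110 on the opposite strand, and whether reads were counted by strand is not given in the sources used here. Bmpr2 (chromosome 1, 59821481 to 59927703) was lowest with overexpression, at 7.89, 6.09 and 7.59 RPKM, with ratios of 0.772 (0.540 to 1.09) and 0.962 (0.682 to 1.34).

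Of the SMADs that carry the signal, only Smad5 with knockdown differed from the control by more than counting error. Smad5 (chromosome 13, 56804371 to 56843738) was at 15.1, 16.6 and 18.6 RPKM and had the most reads of the set at 555, 251 and 250. Its ratio was 1.10 with overexpression (0.946 to 1.28) and 1.23 with knockdown (1.06 to 1.43), and the latter interval excluded 1. Smad1 (chromosome 8, 81862294 to 81923417) was at 6.79, 7.33 and 8.04 RPKM, with ratios of 1.08 (0.749 to 1.54) and 1.19 (0.820 to 1.69). For all 4 receptors and SMADs the counting intervals kept the difference from the control, in either line, below 2-fold. Scaling to equal sums brought Bmpr1a with overexpression to 0.948 of the control and left Smad1 and Smad5 above it, at 1.02 and 1.04.

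**Figure D2:**
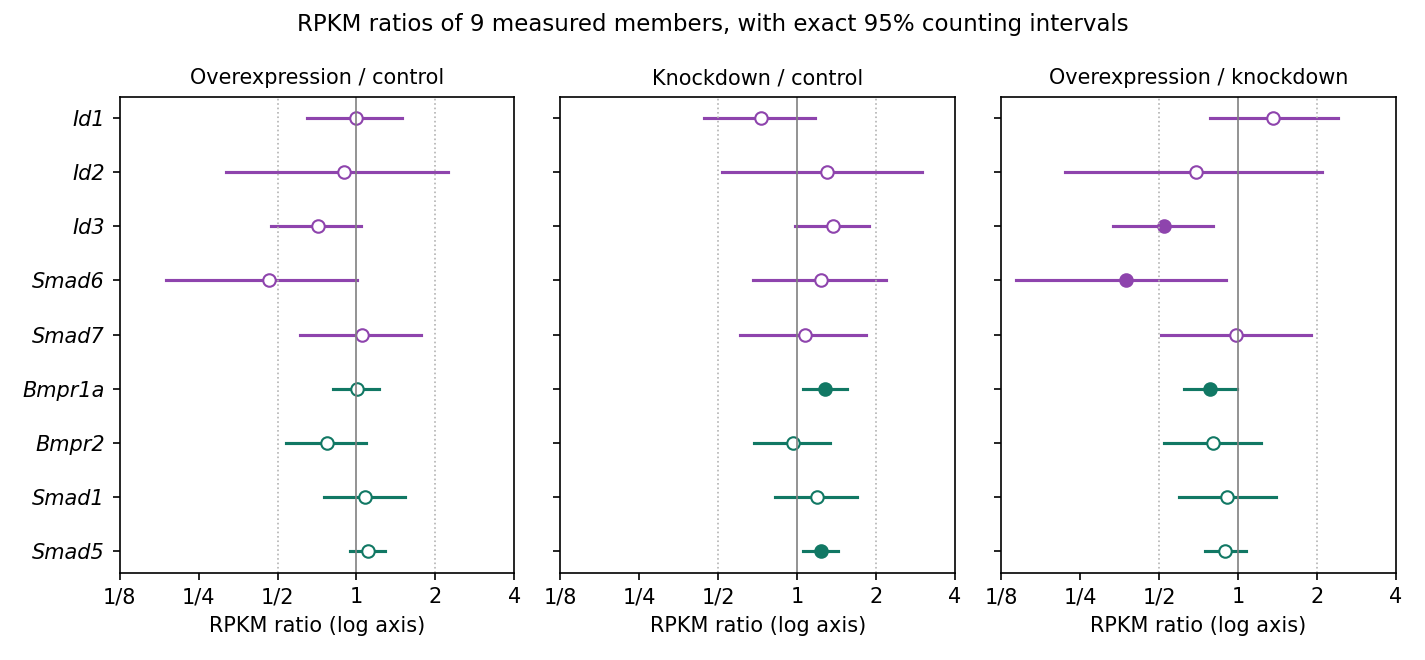
RPKM ratios (log axis) of the 9 measured genes for overexpression to control, knockdown to control and overexpression to knockdown, with exact 95% counting intervals. Targets are purple, receptors and SMADs green, filled points have an interval that excludes 1, and dotted lines mark 2-fold, beyond which only Smad6 lies (0.464 and 0.376).

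Target genes and the receptors and SMADs were set side by side by their medians, with no test of the difference, and the groups overlapped in every comparison. With overexpression the 5 measured targets had a median log2 ratio of −0.16 (range −1.11 to 0.07, 1 above and 4 below the control) and the 4 receptors and SMADs one of 0.06 (−0.37 to 0.14, 3 above and 1 below), against 0.00 over 10165 genes. With knockdown the medians were 0.31 (−0.45 to 0.45, 4 above and 1 below) and 0.27 (−0.06 to 0.35, 3 above and 1 below), against −0.02 over all genes. The 2 comparisons share the control library. In the direct ratio of overexpression to knockdown, which does not use it, the medians were −0.53 for the targets (4 of 5 lower with overexpression) and −0.24 for the receptors and SMADs (4 of 4 lower), against 0.02. For each gene that ratio is the quotient of its 2 ratios to the control, so it is not a separate result. The medians rest on few genes. With knockdown, that of the targets became −0.002 over the 2 with a mean of at least 5 RPKM, Id1 and Id3, which lay on opposite sides of the control, and with overexpression that of the receptors and SMADs became −0.02 after scaling to equal sums.

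Counts past a threshold were read against all genes compared. With overexpression 0 of the 9 measured genes were at least 2-fold higher and 1, Smad6, was at least 2-fold lower, where 3.64% of all genes were higher and 3.47% lower by that much. With knockdown none of the 9 was 2-fold higher or lower, where 3.38% and 4.19% of all genes were. Of overexpression to knockdown, 0 were higher and 1, again Smad6, was lower, where the background was 5.83% and 5.11%. Intervals that excluded 1 were found for 0 of 9 genes with overexpression, 2 with knockdown (Smad5 and Bmpr1a, both higher) and 3 in the direct ratio (Id3, Smad6 and Bmpr1a, all lower with overexpression). Over all genes, 18.0%, 19.4% and 17.8% had such an interval in these comparisons, and counts this small could not be set apart from that background.

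Upstream of the receptors, Bmp4 was the only measured BMP ligand gene of 14, and it was higher in the knockdown library. Of the others, 9 were listed at 0 in all 3 libraries, Bmp2 among them. The Bmp4 levels were 3.03, 3.098 and 11.8 RPKM, from 31, 13 and 44 reads. The knockdown library stood apart from the others, 3.88-fold above the control (2.39 to 6.35), while overexpression was at 1.02 (0.491 to 2.01) and, against knockdown, at 0.264 (0.130 to 0.498).

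Of 16 secreted antagonists of BMP 7 were measured, and 4 of these were higher with knockdown by more than counting error, where 8.99% of all genes had an interval above 1. The 7 had a median log2 ratio of 0.07 with overexpression and 0.45 with knockdown. Fstl1, the most abundant at 182, 175 and 174 RPKM, had ratios of 0.960 (0.900 to 1.02) and 0.955 (0.893 to 1.02). None of the 7 was 2-fold from the control in either comparison, but with knockdown the interval lay above 1 for 4 of them and below 1 for none. These 4, named after their values were seen, were Bmper at 1.59 (1.14 to 2.21), Twsg1 at 1.43 (1.20 to 1.70), Grem1 at 1.41 (1.13 to 1.75) and Nbl1 at 1.27 (1.05 to 1.54). They had 103 to 382 control reads, more than the 88 of the median measured gene. Intervals narrow with more reads, so the share over all genes is not at a like depth. Bmper and Twsg1 encode modulators that bind BMPs outside the cell and can act for or against the signal, and Grem1 and Nbl1 encode antagonists of the DAN family. With overexpression the interval lay above 1 for Nbl1 alone (1.23, 1.02 to 1.47), where 9.39% of all genes had such an interval.

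Other receptors and co-receptors gave a mixed picture. Of 9 listed, 4 were measured. Acvr1, a type I receptor and the most abundant, was at 19.3, 14.4 and 21.6 RPKM, with ratios of 0.747 (0.533 to 1.03) and 1.12 (0.832 to 1.501). Acvr2a, a type II receptor that also binds activins, was at 1.89, 0.836 and 1.03 RPKM, from 55, 10 and 11 reads. Its ratios were 0.443 with overexpression (0.201 to 0.878) and 0.546 with knockdown (0.258 to 1.06), where the interval included 1. With overexpression 3.47% of all genes were at least 2-fold lower. The co-receptor gene Rgma had ratios of 1.46 (0.939 to 2.25) and 1.73 (1.12 to 2.64). The latter interval lay above 1, as did that of 8.99% of all genes with knockdown. Rgmb, the other measured co-receptor gene, had ratios of 1.07 (0.738 to 1.52) and 1.07 (0.725 to 1.54), within counting error of 1. Smad4, the common partner of Smad1 and Smad5, was at 14.1, 11.9 and 15.3 RPKM and within counting error of the control in both comparisons (0.846, 0.652 to 1.09, and 1.08, 0.846 to 1.38).

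Of 13 genes for intracellular regulators of the pathway, all were measured and none was 2-fold from the control. Their median log2 ratios were −0.07 with overexpression and 0.06 with knockdown. In each comparison 2 of the 13 had an interval below 1 and none above it, near the 8.59% of all genes below 1 with overexpression and the 10.4% with knockdown. Fkbp1a, whose product holds type I receptors inactive, was the most abundant at 117, 111 and 87.6 RPKM, with ratios of 0.954 (0.771 to 1.17) and 0.752 (0.589 to 0.952). With knockdown Zeb2 was the other gene (0.830, 0.690 to 0.994), and with overexpression they were Zeb1 (0.672, 0.570 to 0.790) and the co-repressor gene Ski (0.851, 0.735 to 0.983).

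Other genes known to respond to BMP differed in direction. Of 10 listed, 4 were measured, Atoh8, Dlx3, Hey1 and Runx2, and Dlx5 and Alpl were listed at 0 in all libraries. Atoh8, a bHLH factor gene and the most abundant, was at 6.71, 6.86 and 11.54 RPKM, 1.72-fold above the control with knockdown (1.19 to 2.47). Runx2, the osteoblast transcription factor, was at 6.41, 4.66 and 10.5 RPKM, with ratios of 0.727 (0.546 to 0.957) and 1.64 (1.32 to 2.04), and so was lowest with overexpression and highest with knockdown. Dlx3, a homeobox gene, had the other order at 6.06, 13.3 and 4.50 RPKM, with ratios of 2.20 (1.58 to 3.05) and 0.742 (0.441 to 1.20). Hey1, which is also a Notch target, was at 0.228 of the control with knockdown (0.0261 to 0.917) from 24 control and 2 knockdown reads. With overexpression 1 of the 4 had an interval above 1 and 1 below it, and with knockdown 2 above and 1 below. Over all genes, 9.39% were above and 8.59% below with overexpression, and 8.99% and 10.4% with knockdown. By 2-fold, 3.64% of all genes were higher with overexpression, as Dlx3 was, and 4.19% lower with knockdown, as Hey1 was.

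**Figure D3:**
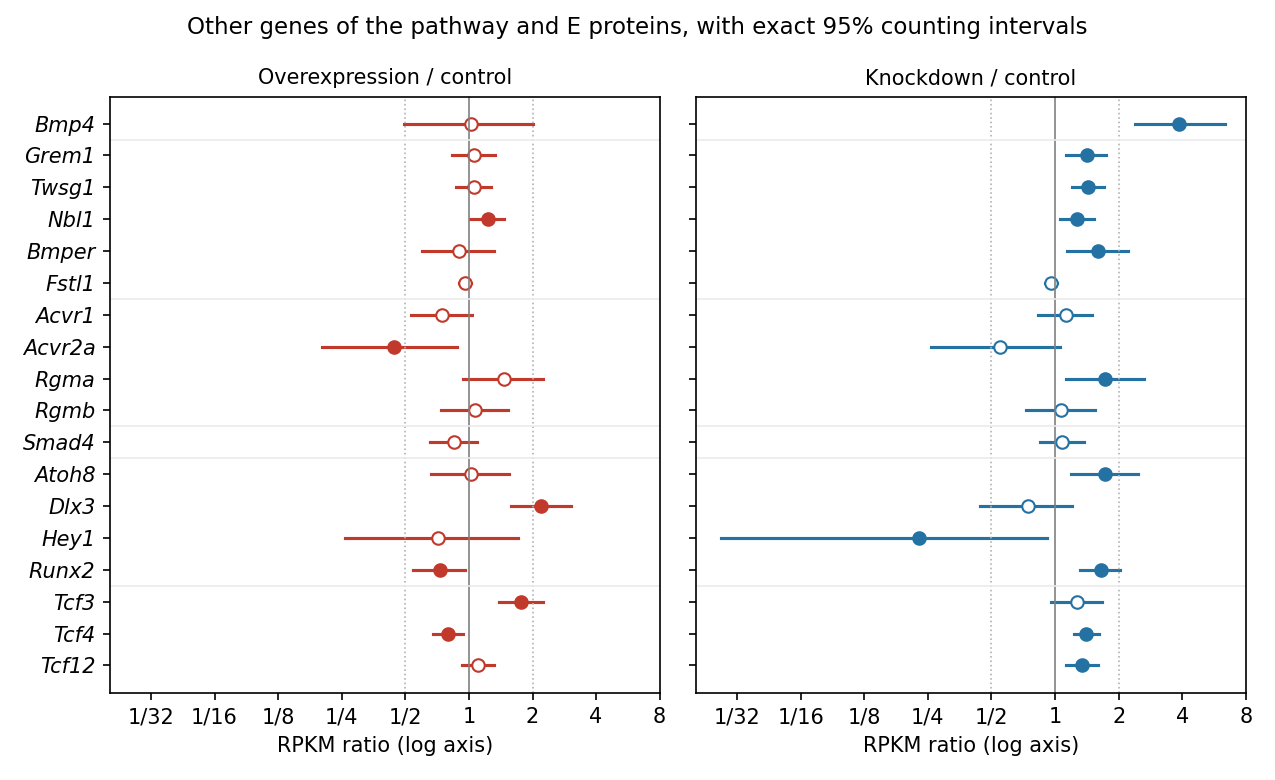
RPKM ratios to the control (log axis) with overexpression (left) and knockdown (right) for other genes of the BMP pathway and the E proteins, with exact 95% counting intervals, filled points for intervals that exclude 1 and dotted lines at 2-fold. Grey lines separate the ligand Bmp4, 5 of the 7 measured antagonists (4 of them chosen after their values were seen), receptors and co-receptors, Smad4, target genes and E proteins, and Bmp4 with knockdown lies furthest above 1 at 3.88.

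The E proteins, which ID proteins bind, differed in their order of libraries. Tcf3 (E2A) was at 9.23, 16.3 and 11.7 RPKM, highest with overexpression (1.77, 1.39 to 2.25, against 1.27, 0.957 to 1.67, with knockdown). Tcf4 was at 15.99, 12.7 and 22.5 RPKM and had the same order of libraries as Id3, with ratios of 0.797 (0.677 to 0.934) and 1.405 (1.225 to 1.61). Tcf12 was at 17.3, 19.1 and 23.2 RPKM, with ratios of 1.10 (0.925 to 1.31) and 1.34 (1.13 to 1.59). Among the myogenic bHLH partners, Myod1 was at 16.7, 34.1 and 9.76 RPKM, the reverse of the Id3 order, Myf5 at 11.7, 15.7 and 10.5, Myog at 3.95, 22.1 and 3.60, and Myf6 was not measured, at 0.853 RPKM or less. The summed levels of the ID genes were 45.9, 38.3 and 50.7 RPKM. Id1 did not share that order, being lowest with knockdown, and every ID ratio to the control, as deposited, had an interval that included 1. The myoblast markers above summed to more with overexpression and less with knockdown. Des was the largest part of those sums, and Chrna1 with knockdown was at 1.145 of the control, with an interval that included 1. The part of the myoblast markers in the ID levels was not tested.

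Genes whose values over the 3 libraries most resembled an ID gene were sought by the distance of their log2 ratios to the control, among 3288 genes with a mean of at least 10 RPKM. Those nearest to Id1 were Kif1c (distance 0.012) and Gpc1 (0.012), and 88 genes lay within 0.1. For Id2 they were Spag7 (0.0088) and Samd14 (0.012), with 46 genes within 0.1. For Id3 they were BC003266 (0.057) and Fkbp14 (0.062), with 7 genes within 0.1. Likeness over 3 libraries rests on 2 ratios that share a control. The counting intervals of the ID ratios are far wider than these distances (0.319 to 2.23 for Id2 and 0.473 to 1.04 for Id3, with overexpression). Which genes are nearest, and how many lie within 0.1, is thus not settled at this depth.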

How the data were processed

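Polyadenylated RNA of 3 stable C2C12 lines was sequenced, 1 library each, with groups taken from the sample titles. The authors mapped reads to mm9 with TopHat (version 1.4.1 per the submitters' processing notes), obtained coverage per gene with DEGSeq and deposited RPKM values. Not given in the sources used here are the annotation, the read totals and the treatment of multiply mapping reads, so genes with near-identical copies could share reads.

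From the deposited RPKM, ratios were taken, without a pseudocount, for genes whose mean was at least 1 RPKM. 2-fold is the criterion in the study's methods, and 1.5-fold, a cutoff it also used, was an alternative. The total of each library was found as the smallest at which genes under 0.8 RPKM were whole at a GENCODE length (up to 30 reads, within 1e-05) at least 0.85 times as often as at the best total. Matches of a gene, a length and a read number came to 734, 525 and 511 in the control, overexpression and knockdown libraries, against 2 at a typical total. Reads per gene were taken at a GENCODE length that made all libraries whole (23.6% of measured genes), or otherwise at the shortest length from 150 to 20000 nt that did, and are then a lower estimate. The median measured gene had 88, 37 and 32 reads. The recovery and the intervals were tested on simulated data at annotated lengths only. Proportions of related genes used the exact conditional odds ratio interval. Positions of genes are from GENCODE on mm9, and promoters from RefSeq on GRCm38.p6.

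The genes and lists were chosen with earlier results of these data known. Genes named outside the 10 were the E proteins, the myogenic bHLH factors, the most abundant gene of each list, up to 3 per list that were 2-fold from the control with an interval excluding 1, and the 2 nearest genes to each ID gene, other names being marked or completing a count of 5 or fewer. Alternatives were other filters, added constants, scalings and thresholds. The software was scipy 1.17.1, pandas 2.3.3 and numpy 2.4.6 under Python 3.11.15, and figures were drawn with matplotlib 3.10.9.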

Additional observations from a re-analysis of the deposited data

How the results depend on the processing

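Added constants and scalings left the ratios of the 9 measured genes inside their counting intervals in 135 combinations of gene, comparison and setting, and on the same side of 1 in 132 of them. The exceptions were Smad7 (0.994) and Bmpr1a (0.948) with overexpression after scaling to equal sums, and Bmpr1a (0.981) after scaling to the upper quartile. Filters cannot alter a single ratio. The group medians kept their direction in 40 of 42 combinations, the others being −0.002 in place of 0.31 for the targets with knockdown at a mean of at least 5 RPKM and −0.02 in place of 0.06 for the receptors and SMADs with overexpression after scaling to equal sums. Counts past a threshold depended on the setting in 37 of 108 combinations. Of the 10 genes, the 1 lower by 2-fold with overexpression became 0 at a mean of at least 5 RPKM, with 1 RPKM added and where the interval had to exclude 1. Intervals gave 2 higher with knockdown in place of 0. Against knockdown, the 1 lower with overexpression became 0 at a mean of at least 5 RPKM or with 1 RPKM added, 2 at 1.5-fold or after scaling to equal sums (Smad6 and Id3), and 3 by intervals.

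Over all genes, with overexpression the 370 higher and 353 lower became 101 and 72 at a mean of at least 5 RPKM, 897 and 604 with no filter, 194 and 147 with 1 RPKM added, 1073 and 968 at 1.5-fold, and 954 and 873 by intervals. With knockdown the 344 and 426 became 76 and 108 at a mean of at least 5 RPKM, 128 and 174 with 1 RPKM added, 1071 and 1232 at 1.5-fold, 914 and 1060 by intervals, and 903 higher with no filter. Of overexpression to knockdown, the 592 and 518 became 201 and 117 at a mean of at least 5 RPKM, 341 and 222 with 1 RPKM added, 1454 and 1278 at 1.5-fold, 978 and 829 by intervals, and 862 lower with no filter. Fewer or more genes enter under the filters.

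No paired analysis was possible because each condition has 1 library. Depth limits Bambi most, with 1 to 4 reads in a library, and among the measured genes Id2, Smad6 and Smad7, with 7 to 51.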
